A study of Mus musculus with 18 samples.

Results

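Glutamate and GABA are the main fast transmitters of excitation and inhibition in the mammalian brain, and the genes described here encode subunits of their receptors. The set holds 33 genes in 6 classes. They are 4 AMPA receptor subunits, 6 NMDA receptor subunits, 5 kainate receptor subunits, 6 metabotropic glutamate receptors, 5 alpha subunits of the GABA-A receptor and 7 other GABA-A subunits. A probe belonged to the set when the transcript accession given for it on the array led to one of these gene symbols. This gave 54 of the 41174 probes, for 32 of the 33 genes. No probe could be matched to Grin3a, an NMDA subunit, so Grin3a was not analysed here. Of the 32 genes, 31 passed the filter on dim probes. Gabre, the epsilon subunit of the GABA-A receptor, had probes that did not.

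The study measured RNA of brainstem, hippocampus and cortex from male mice of strain 129SV on 18 one-colour Agilent arrays. Each region was taken from mice lacking the transcription factor Nrf2 (KO, gene symbol Nfe2l2) and from wild-type mice (WT), with 3 independent RNAs per group. The 6 groups were thus KO brainstem, WT brainstem, KO hippocampus, WT hippocampus, KO cortex and WT cortex. The title of the series states that the animals were unstressed. The kind of Nrf2 allele and the age of the animals are not given in the sources used here.

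AMPA receptors are glutamate-gated channels that carry most of the fast excitatory current. NMDA receptors open only when glutamate and a co-agonist bind while the membrane is depolarised, and they admit calcium. Kainate receptors modulate release and excitability, and metabotropic receptors act through G proteins. GABA-A receptors are pentameric chloride channels, usually of alpha, beta and one further kind of subunit, and the subunit mixture sets their place at or outside the synapse. Nrf2 is a transcription factor best known for switching on genes of antioxidant defence through antioxidant response elements.

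The share of spots clearly brighter than background was 65.3% to 75.1% per array, and 26 of the 31 subunit genes were so on all 18 arrays. The exceptions were Grik3, Grm4, Gabra6, Gabrg3 and Gabrq. All values below are log2 intensities relative to the 75th percentile of the same array, so they can be compared between samples for 1 gene but not between genes. The Nfe2l2 probe read between -8.39 and -3.62 on the 9 KO arrays, against 0.79 to 1.39 on the 9 WT arrays. It was well above background on 1 of 3 KO brainstem, 3 of 3 KO hippocampal and 0 of 3 KO cortical arrays. It was called lower in KO in each of the 3 regions (limma, adjusted p = 1.1e-05 in brainstem, 0.00051 in hippocampus and 1.92e-06 in cortex). Whether it lies in the deleted part of the gene is not known here. In the authors' table of the whole series, 11 of the 18 columns held the values of the array of their name and 7 those of another array. All values here come from the scanner files of each sample. In these, Dsp, a marker of the hippocampal dentate gyrus, read -0.10 to 0.95 in the hippocampal samples and -5.77 to -3.73 in all others. The samples labelled brainstem also held markers of hypothalamus (mean of 8 markers 1.17 to 1.69 in KO and 1.26 to 1.62 in WT, against -3.17 to -2.34 in the other samples). The arrays lay on 5 slides, and every KO array shared its slide with the WT array of the same region and number. Cortex arrays lay on slides of their own, so cortex and slide cannot be told apart, whereas slide 2 held both brainstem and hippocampus.

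**Figure D1:**
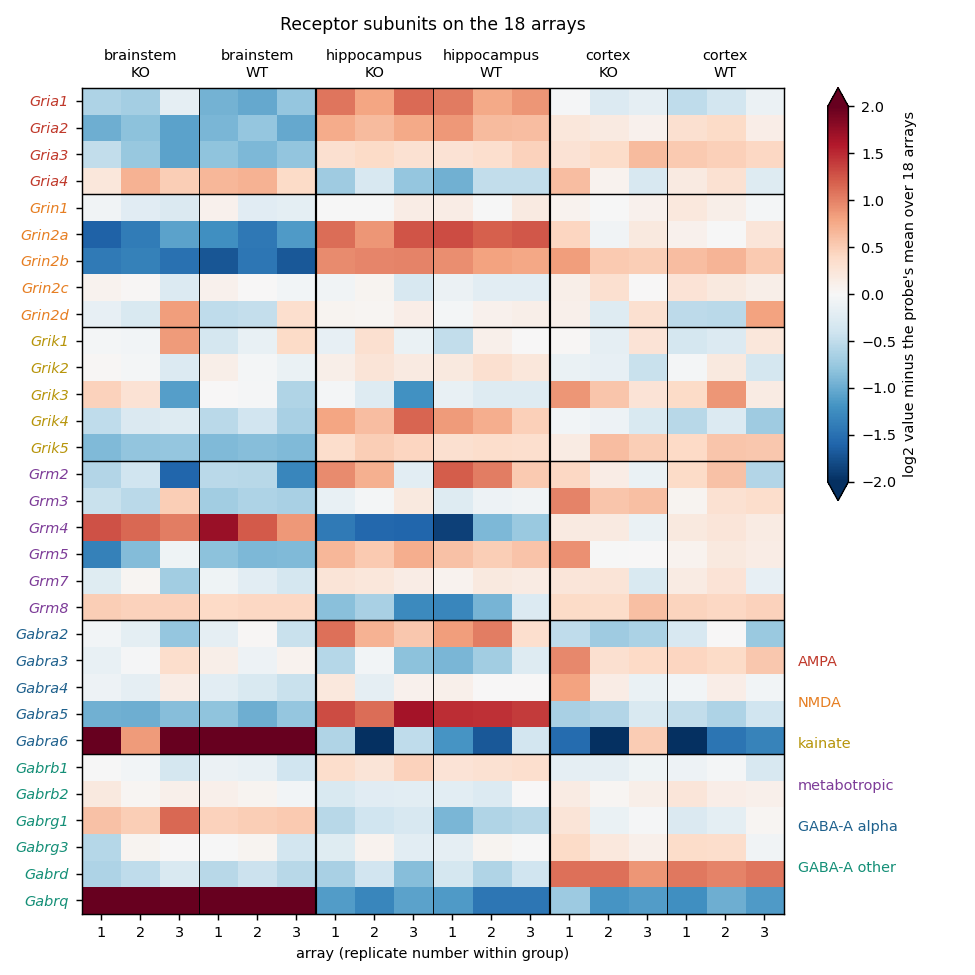
Each cell is the log2 value of 1 subunit gene on 1 array minus the mean of that probe over the 18 arrays. Columns run from brainstem to hippocampus to cortex with KO before WT, rows are grouped by class, and the colour scale ends at 2 either way. The columns differ mainly by region, and KO and WT columns of a region look alike.

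The first question was whether the loss of Nrf2 changed the level of any subunit. In none of the 3 regions did a subunit gene pass the test between KO and WT. In brainstem 0 of 31 were called (limma, Benjamini-Hochberg over 22672 genes), against 0.0309% of all genes, and 3 had an unadjusted p under 0.05 (9.68%, against 2.96% of all genes). In hippocampus 0 of 31 were called, against 0.0176% of all genes, and 0 had an unadjusted p under 0.05, against 1.33% of all genes. In cortex 0 of 31 were called, against 0.0309% of all genes, and 2 had an unadjusted p under 0.05 (6.45%, against 2.19% of all genes). Averaged over the regions 0 of 31 were called, against 0.0529% of all genes, and 4 had an unadjusted p under 0.05 (12.9%, against 6.94% of all genes). Such calls were rare for genes in general, so a count of 0 does not set the subunits apart.

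The differences were small in most classes. The median log2 difference over the 31 genes was 0.04 in brainstem, 0.02 in hippocampus and 0.01 in cortex, and over all genes it was 0.0025, 0.02 and 0.0014. The median absolute difference was 0.09 in each region for the subunits, and 0.11, 0.09 and 0.11 for all genes. Averaged over regions, the 95% confidence interval of the difference lay within 0.5 either way for 25 of the 31 genes. The exceptions were Grin2d, Gabra6, Grik1, Grm3, Grm2 and Grm4. All of the intervals except that of Gabra6 lay within 1 either way. The average takes the arrays of the 3 regions as independent. Arrays of the same genotype and number in different regions deviated together with r over 0.1 in 14 of 18 pairs. The true width of these intervals is therefore uncertain and could be larger. The test does not show that levels were equal, and changes smaller than these intervals could not be seen with 3 arrays per group. The difference of the KO effect between regions was called for 0 of the 31 subunits in each of 3 pairs of regions, against 0.0% of all genes.

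**Figure D2:**
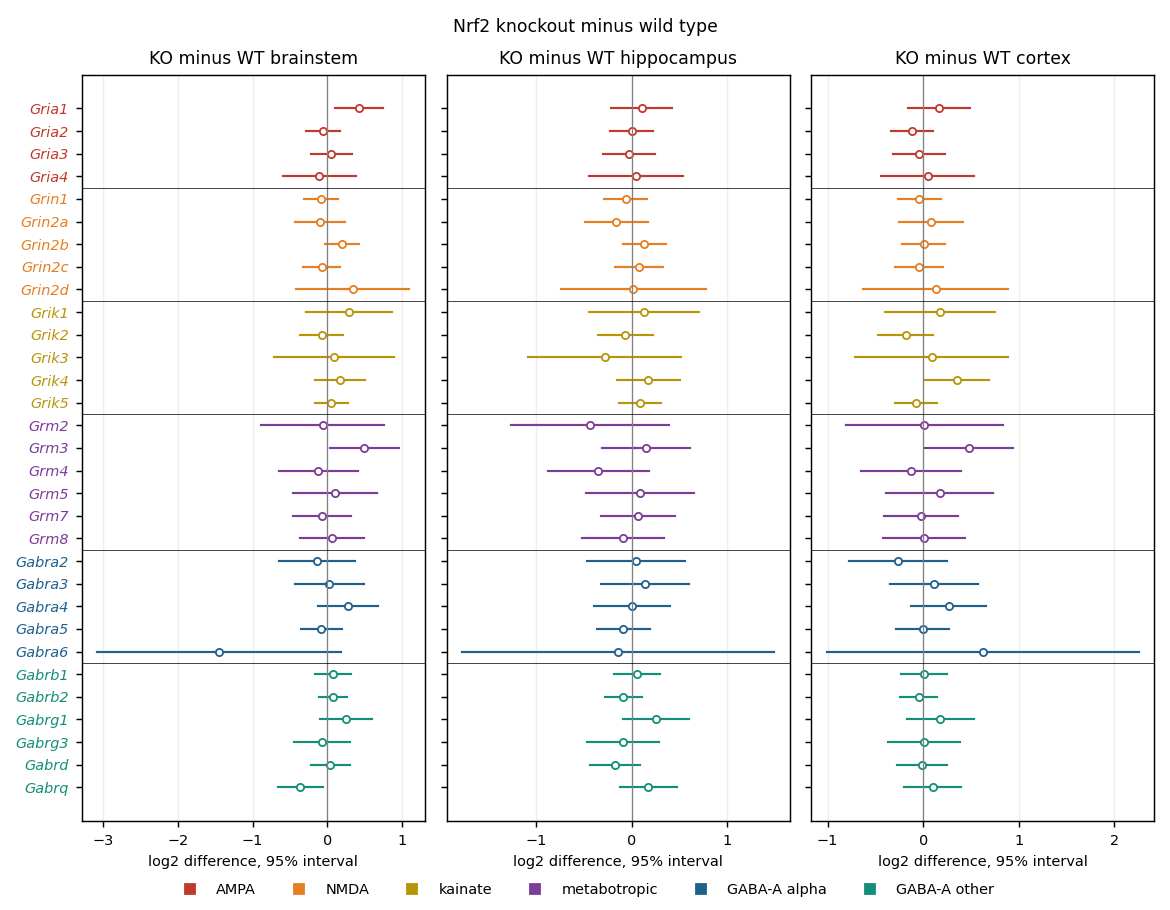
Points are log2 differences, KO minus WT, for 31 subunit genes in brainstem, hippocampus and cortex, with 95% confidence intervals from the limma fit (3 arrays per group). All points are open because none passed the test; the widest intervals belong to Gabra6, which was near background outside brainstem.

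Among the metabotropic receptors, the subunit closest to a KO difference was Grm3, a group II receptor of neurons and astrocytes that lowers cyclic AMP. Grm3 read 0.50, 0.41 and 1.44 in KO brainstem and 0.25, 0.32 and 0.30 in WT brainstem. It read 0.80, 0.90 and 1.14 in KO hippocampus, 0.69, 0.84 and 0.87 in WT hippocampus, 1.94, 1.49 and 1.54 in KO cortex and 0.99, 1.25 and 1.29 in WT cortex. All KO values lay above all WT values in brainstem and cortex, and in hippocampus the groups overlapped. The log2 difference was 0.49 ± 0.21 in brainstem (± SE of the limma fit, as for all differences below), 0.15 ± 0.21 in hippocampus and 0.48 ± 0.21 in cortex. Averaged over regions it was 0.37 ± 0.12, with an unadjusted p of 0.00912 and a limma adjusted p of 0.709. KO was above WT on each of the 2 slides of brainstem (0.17 and 1.14), of hippocampus (0.11 and 0.17) and of cortex (0.60 and 0.25).

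The third KO brainstem sample set much of the size of the brainstem difference of Grm3. Without it the difference was 0.16. The same sample had the highest mean of 9 striatal markers in brainstem. That mean was -1.0 to 0.26 in KO brainstem and -1.15 to -0.91 in WT brainstem and all 9 were above background on every brainstem array. In cortex the same list read 0.23 to 0.36 in KO and 0.64 to 0.85 in WT, and none of the 9 passed the test. The third KO brainstem sample also had the highest mean of 9 choroid plexus markers in brainstem, 0.36, against -1.83 and -2.12 in the other KO brainstem samples and -2.14 to -0.67 in WT brainstem. The part of these lists in the difference of Grm3 was not tested.

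Gria1 encodes an AMPA subunit whose insertion at synapses underlies much of long-term potentiation, and it had the smallest p of the subunits in brainstem. For Gria1 the brainstem values were 4.67, 4.60 and 5.11 in KO and 4.34, 4.26 and 4.50 in WT. The hippocampal values were 6.35, 6.07 and 6.42 in KO and 6.32, 6.04 and 6.16 in WT, and the cortical values 5.26, 5.01 and 5.11 in KO and 4.78, 4.92 and 5.17 in WT. In brainstem all KO samples were above all WT samples, and the groups overlapped in hippocampus and in cortex. The log2 difference was 0.42 ± 0.15 in brainstem (unadjusted p = 0.0134, limma adjusted p = 0.9998). It was 0.34 on slide 1 and 0.60 on slide 2, and 0.27 without the third KO brainstem sample. A second probe for Gria1 gave a brainstem difference of -0.09, in the opposite direction. It was also opposite to the probe used in hippocampus (-0.205 against 0.104), in cortex (-0.137 against 0.167) and averaged over regions (-0.144 against 0.232).

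Gabrq encodes the theta subunit of the GABA-A receptor, known from monoaminergic nuclei and hypothalamus. Samples of KO brainstem had -5.35, -5.11 and -5.23 and samples of WT brainstem -4.92, -4.69 and -5.0 for Gabrq. KO hippocampus had -8.48, -8.67 and -8.43, WT hippocampus -8.50, -8.81 and -8.81, KO cortex -8.09, -8.54 and -8.48 and WT cortex -8.58, -8.33 and -8.49. It was well above background on 2 of the 3 KO and 3 of the 3 WT brainstem arrays and on no array of hippocampus or cortex. The gene thus passed the filter on dim probes only through WT brainstem, the group where it was highest. In brainstem the KO values were below the WT values without overlap, and the log2 difference was -0.36 ± 0.14 (unadjusted p = 0.0206, limma adjusted p = 0.9998). With normexp background correction of the median signals, an alternative added after seeing the data, it was 0.0027. That alternative adds an offset of 50 intensity units to every spot, which by itself shrinks log2 differences between dim values.

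In cortex the smallest p belonged to Grik4, a kainate subunit of high agonist affinity that forms channels only with the low-affinity subunits. In brainstem Grik4 stood at 1.78, 2.01 and 2.03 in KO and at 1.75, 1.92 and 1.65 in WT. In hippocampus it stood at 3.09, 2.91 and 3.46 in KO and 3.14, 3.02 and 2.77 in WT, and in cortex at 2.23, 2.20 and 1.99 in KO and 1.75, 2.02 and 1.59 in WT. Its groups overlapped in all 3 regions. The log2 difference was 0.35 ± 0.16 in cortex (unadjusted p = 0.0381, limma adjusted p = 0.9999) and 0.23 ± 0.09 averaged over regions. Gabra4, an alpha subunit found mainly outside synapses with the delta subunit, followed Grm3 in cortex. Gabra4 read 2.39, 2.32 and 2.65 in KO brainstem and 2.29, 2.19 and 2.05 in WT brainstem. It read 2.71, 2.32 and 2.57 in KO hippocampus, 2.60, 2.51 and 2.50 in WT hippocampus, 3.30, 2.65 and 2.36 in KO cortex and 2.44, 2.63 and 2.45 in WT cortex. One KO cortex sample, the first, stood above the other 5, and the log2 difference in cortex was 0.27 ± 0.18. Without that sample it was 0.0022, and without the third KO cortex sample it was 0.47.

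In hippocampus no subunit had an unadjusted p under 0.05. The lowest belonged to Gabrg1, a gamma subunit also made by glia, at 0.26 ± 0.16, to Grm4, a presynaptic group III receptor, at -0.35 ± 0.25, and to Gabrd, the extrasynaptic delta subunit, at -0.17 ± 0.12. Leaving out 1 array moved each of the 3. Without the first WT hippocampal sample Gabrg1 was at 0.15 and Grm4 at -0.70, and Grm4 was at -0.21 without the second and at -0.14 without the third. Gabrd was at -0.06 without the third KO hippocampal sample and at -0.30 without the second. Their sample values are given with the regions below. Grm4 was above background on 0 of 3 KO and 2 of 3 WT hippocampal arrays, so its value there is close to the limit of measurement. KO and WT samples did not overlap for 5 of the 31 subunits in brainstem (Gria1, Grm3, Gabrq, Gabra4 and Grm8), against 6.6% of all genes. They did not overlap for 2 in hippocampus (Grin2b and Grik5), against 7.76% of all genes, and for 1 in cortex (Grm3), against 6.07%.

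The largest KO difference in size was that of Gabra6 in brainstem, and it did not pass the test. Gabra6 encodes an alpha subunit known almost only from cerebellar granule cells and cochlear nucleus. For Gabra6 the brainstem values were -4.12, -5.32 and -3.28 in KO and -3.57, -2.58 and -2.24 in WT. The hippocampal values were -6.78, -8.70 and -6.68 in KO and -7.34, -7.86 and -6.53 in WT, and the cortical values -7.71, -8.69 and -5.66 in KO and -8.82, -7.62 and -7.50 in WT. It was above background on all brainstem arrays, where the KO and WT values overlapped, and on 0 or 1 of 3 arrays in each of the other groups. The log2 difference in brainstem was -1.44 ± 0.76 (unadjusted p = 0.0785, limma adjusted p = 0.9998). Without the second KO brainstem sample it was -0.90, and with normexp background correction and its offset, which shrinks differences of dim probes, it was -0.73. Cbln3, a marker of cerebellar granule cells, read -7.81, -6.83 and -6.63 in KO brainstem, where no array was above background, against -6.00, -5.54 and -5.17 in WT brainstem, where all 3 were. The mean of the 9 measured cerebellar markers of 10 was -0.95 to -0.55 in KO and -0.70 to -0.30 in WT brainstem. Their part in the value of Gabra6 was not tested.

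The second question, which the same arrays answer, was how the subunits differ between the 3 regions. In WT mice 23 of the 31 were called in at least 1 of 3 comparisons, against 52.0% of all genes. Of the 31, 5 were called in all 3, against 6.33% of all genes, namely Gria1, Gria2, Grin2a, Grm4 and Gabrg1. The 8 called in none, by the probe used for each gene, were Gabra4, Gabrg3, Grik1, Grik2, Grik3, Grin1, Grin2d and Grm7. In brainstem against hippocampus 7 were higher and 12 lower, against 23.0% and 18.5% of all genes. In brainstem against cortex 4 were higher and 9 lower, against 19.1% and 16.6% of all genes. In hippocampus against cortex 7 were higher and 8 lower, against 6.79% and 10.5% of all genes. The median log2 difference of the subunits was -0.28 between brainstem and hippocampus, -0.31 between brainstem and cortex and 0.01 between hippocampus and cortex, against 0.01, 0.03 and 0.01 for all genes. Values after ± are standard errors of the limma fit for differences and SD for group means.

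In such bulk samples fewer cells of a type and less RNA per cell cannot be told apart. The mean level of 8 neuronal markers was 4.18 to 4.31 in WT brainstem, 4.08 to 4.30 in WT hippocampus and 4.29 to 4.36 in WT cortex. These means hide members that went both ways. In WT brainstem 2 of the 8 were called higher and 3 lower than in cortex, and 4 higher and 3 lower than in hippocampus. In WT hippocampus 1 was called higher and 3 lower than in cortex. The 8 astrocyte markers stood at 3.30 to 3.38 in WT brainstem, against 2.56 to 2.68 in WT hippocampus and 2.51 to 2.67 in WT cortex. The 9 markers of myelin and oligodendrocytes stood at 3.76 to 3.93, against 2.60 to 2.89 and 2.46 to 2.65 in the same groups. For 6 interneuron markers the values were 0.31 to 0.66, 0.71 to 1.03 and 1.34 to 1.64. Of these 6, 2 were called higher and 4 lower in WT brainstem than in WT cortex, and the same numbers against WT hippocampus. Every marker of these 4 lists was above background on all WT arrays. The 9 striatal markers averaged -1.15 to -0.91 in WT brainstem and -1.79 to -1.33 in WT hippocampus, against 0.64 to 0.85 in WT cortex. Of these 9, 7 were called lower in WT brainstem and 8 lower in WT hippocampus than in WT cortex. The 6 measured markers of thalamus and habenula averaged 0.04 to 0.20 in WT brainstem, against -2.70 to -2.43 in WT hippocampus and -3.48 to -3.24 in WT cortex. All 6 were called higher in WT brainstem than in WT cortex, and 5 than in WT hippocampus. The part of any of these lists in the differences between regions was not tested.

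**Figure D3:**
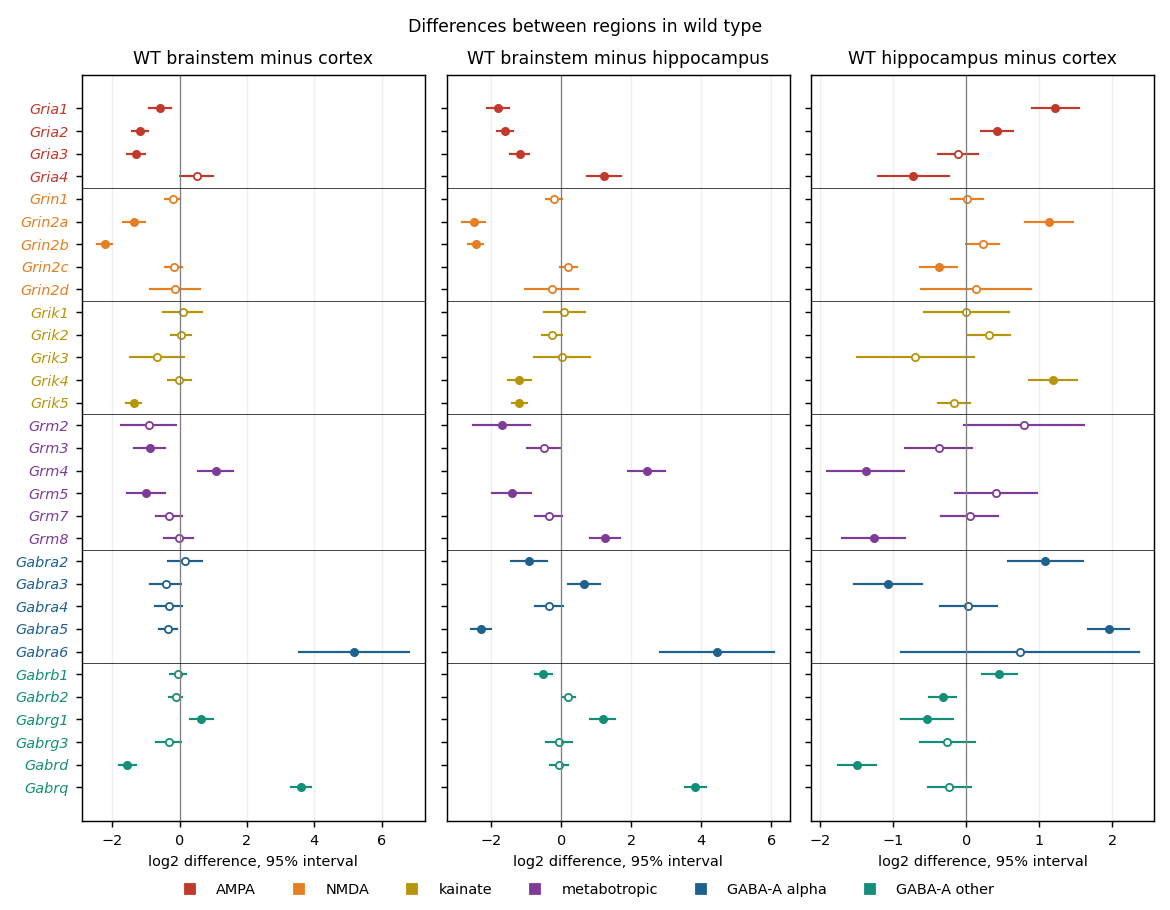
Points are log2 differences between regions in WT mice with 95% confidence intervals (3 arrays per group), by class from AMPA at the top to other GABA-A subunits at the bottom. Filled points passed the test at an adjusted p under 0.05. Gabra6 and Gabrq stand far to the right in both comparisons with brainstem, and Grin2b far to the left. Grin2a and Gabra5 also stand far to the left for brainstem minus hippocampus.

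Of the 4 AMPA subunits, 3 were lower in brainstem than in hippocampus and cortex and the fourth, Gria4, was higher in brainstem than in hippocampus. The values of Gria1 given above fell into 3 separate levels in WT, highest in hippocampus. Gria1 was -1.81 ± 0.15 for brainstem minus hippocampus (adjusted p = 2.53e-07), -0.59 ± 0.15 for brainstem minus cortex (adjusted p = 0.00665) and 1.22 ± 0.15 for hippocampus minus cortex (adjusted p = 6.48e-05), the last a 2.33-fold higher level in hippocampus. Its second probe gave -1.88, -0.22 and 1.67. Gria2 encodes the subunit that, when edited, keeps AMPA channels closed to calcium. Samples of KO brainstem had 3.63, 3.79 and 3.55 and samples of WT brainstem 3.70, 3.84 and 3.59 for Gria2. KO hippocampus had 5.35, 5.24 and 5.37, WT hippocampus 5.48, 5.25 and 5.22, KO cortex 4.84, 4.79 and 4.70 and WT cortex 4.94, 5.0 and 4.74. The brainstem samples of Gria2 lay below all others, and its WT differences were -1.61 ± 0.10 for brainstem minus hippocampus (adjusted p = 2.15e-08), -1.18 ± 0.10 for brainstem minus cortex (adjusted p = 6.16e-07) and 0.42 ± 0.10 for hippocampus minus cortex (adjusted p = 0.0113).

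Gria3, the AMPA subunit on the X chromosome, was lower in brainstem than in the other regions. In brainstem Gria3 stood at 1.18, 0.91 and 0.60 in KO and at 0.87, 0.78 and 0.88 in WT. In hippocampus it stood at 1.99, 2.06 and 1.97 in KO and 1.96, 2.01 and 2.13 in WT, and in cortex at 1.95, 2.03 and 2.31 in KO and 2.19, 2.15 and 2.08 in WT. It was -1.19 ± 0.13 for brainstem minus hippocampus (adjusted p = 2.95e-06) and -1.30 ± 0.13 for brainstem minus cortex (adjusted p = 1.58e-06), and hippocampus and cortex overlapped. A second probe of Gria3 was also called lower in both, but by less, at -0.491 and -0.494. Gria4, the AMPA subunit of fast-kinetics synapses, ran the other way. Gria4 read 0.34, 0.82 and 0.61 in KO brainstem and 0.78, 0.81 and 0.50 in WT brainstem. It read -0.59, -0.20 and -0.65 in KO hippocampus, -0.84, -0.38 and -0.38 in WT hippocampus, 0.73, 0.18 and -0.20 in KO cortex and 0.29, 0.42 and -0.14 in WT cortex. WT hippocampal samples were below those of WT brainstem and WT cortex, with differences of 1.23 ± 0.23 for brainstem minus hippocampus (adjusted p = 0.000541) and -0.72 ± 0.23 for hippocampus minus cortex (adjusted p = 0.0428). The call between hippocampus and cortex held under 15 of 27 alternatives. Brainstem and cortex were not called (0.51 ± 0.23 for brainstem minus cortex, adjusted p = 0.102).

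Among the NMDA subunits, the glutamate-binding subunits Grin2a and Grin2b were lower in brainstem, whereas Grin1, the subunit every NMDA receptor needs, was not called. Grin2a and Grin2b dominate forebrain receptors, and Grin2a takes over from Grin2b during maturation. For Grin2a the brainstem values were -4.98, -4.75 and -4.42 in KO and -4.58, -4.79 and -4.49 in WT. The hippocampal values were -2.23, -2.48 and -2.11 in KO and -2.06, -2.17 and -2.11 in WT, and the cortical values -2.93, -3.42 and -3.16 in KO and -3.28, -3.37 and -3.11 in WT. These values formed 3 separate levels, with hippocampus highest and brainstem lowest. Grin2a was 5.68-fold lower in WT brainstem than in WT hippocampus (-2.50 ± 0.15 for brainstem minus hippocampus, adjusted p = 1.31e-08). The other WT differences were -1.37 ± 0.15 for brainstem minus cortex (adjusted p = 7.2e-06) and 1.14 ± 0.15 for hippocampus minus cortex (adjusted p = 0.000147). Samples of KO brainstem had -0.43, -0.36 and -0.51 and samples of WT brainstem -0.73, -0.45 and -0.70 for Grin2b. KO hippocampus had 1.93, 1.96 and 1.98, WT hippocampus 1.92, 1.80 and 1.76, KO cortex 1.83, 1.51 and 1.48 and WT cortex 1.61, 1.67 and 1.51. Every brainstem sample of Grin2b was more than 1 log2 unit below every sample of the other regions. Grin2b was -2.45 ± 0.11 for brainstem minus hippocampus (adjusted p = 5.12e-10) and -2.22 ± 0.11 for brainstem minus cortex (adjusted p = 1.46e-09). By the probe used it was not called between WT hippocampus and WT cortex (0.23 ± 0.11 for hippocampus minus cortex, adjusted p = 0.164). Its 5 probes gave 0.23 to 0.60 there, and 2 of them were called. In KO the probe used was called higher in hippocampus than in cortex, a call that held under 20 of 27 alternatives.

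Grin2c, known best from cerebellar granule cells, thalamus and astrocytes, varied little. In brainstem Grin2c stood at 3.06, 3.02 and 2.73 in KO and at 3.09, 3.01 and 2.94 in WT. In hippocampus it stood at 2.93, 3.05 and 2.68 in KO and 2.88, 2.78 and 2.78 in WT, and in cortex at 3.11, 3.32 and 3.01 in KO and 3.26, 3.19 and 3.11 in WT. It was slightly lower in WT hippocampus than in WT cortex (-0.38 ± 0.12 for hippocampus minus cortex, adjusted p = 0.0398), a call that held under 14 of 27 alternatives, and the KO groups overlapped. Grin1 averaged -1.20 ± 0.17 in WT brainstem, -0.98 ± 0.10 in WT hippocampus and -1.0 ± 0.13 in WT cortex (SD, n = 3 each). Grin2d, the subunit of early development and of interneurons, averaged -3.00 ± 0.48, -2.72 ± 0.09 and -2.86 ± 0.77 in the same groups (SD, n = 3 each). Its samples spread more within brainstem and cortex than the groups differed.

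Of the kainate subunits, the high-affinity subunits Grik4 and Grik5 differed between regions. By the probes used, the low-affinity subunits Grik1, Grik2 and Grik3 were not called in WT. A second probe of Grik1 was called higher in WT brainstem than in WT cortex (0.64) and WT hippocampus (0.56). A second probe of Grik2 was called lower in WT brainstem than in WT hippocampus (-0.90) and WT cortex (-0.51). The hippocampal values of Grik4 given above lay above all others. It was -1.20 ± 0.16 for brainstem minus hippocampus (adjusted p = 2e-05) and 1.19 ± 0.16 for hippocampus minus cortex (adjusted p = 0.000104), and brainstem and cortex overlapped. Grik5 forms heteromers with the low-affinity subunits in most of the forebrain. Grik5 read 2.25, 2.34 and 2.34 in KO brainstem and 2.25, 2.27 and 2.25 in WT brainstem. It read 3.48, 3.61 and 3.56 in KO hippocampus, 3.44, 3.47 and 3.46 in WT hippocampus, 3.29, 3.75 and 3.62 in KO cortex and 3.53, 3.68 and 3.67 in WT cortex. It was lower in brainstem throughout, at -1.20 ± 0.10 for brainstem minus hippocampus (adjusted p = 2.92e-07) and -1.37 ± 0.10 for brainstem minus cortex (adjusted p = 1.08e-07). Grik1 averaged -0.57 ± 0.38 in WT brainstem, -0.66 ± 0.32 in WT hippocampus and -0.66 ± 0.32 in WT cortex (SD, n = 3 each). Grik2 averaged -1.99 ± 0.13, -1.72 ± 0.06 and -2.03 ± 0.27 in the same groups (SD, n = 3 each). Grik3 was near background, at -5.99 ± 0.34 in WT brainstem where 1 of 3 arrays measured it, -6.01 ± 0.07 in WT hippocampus and -5.31 ± 0.37 in WT cortex (SD, n = 3 each).

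The metabotropic receptors split by direction. Grm4 and Grm8, presynaptic group III receptors, were lowest in hippocampus, and Grm2 and Grm5 were higher in hippocampus than in brainstem. For Grm4 the brainstem values were -3.79, -3.92 and -4.05 in KO and -3.35, -3.85 and -4.20 in WT. The hippocampal values were -6.48, -6.65 and -6.66 in KO and -6.95, -5.98 and -5.82 in WT, and the cortical values -4.89, -4.89 and -5.21 in KO and -4.88, -4.83 and -4.91 in WT. Brainstem samples of Grm4 were above all cortex samples, and hippocampal samples were below both. Grm4 was 1.07 ± 0.25 for brainstem minus cortex (adjusted p = 0.00326). In WT hippocampus 2 of 3 arrays measured it, with 2.45 ± 0.25 for brainstem minus hippocampus (adjusted p = 1.7e-06) and -1.38 ± 0.25 for hippocampus minus cortex (adjusted p = 0.00128). In KO hippocampus no array did, so there Grm4 was at least 6.10-fold higher in KO brainstem (adjusted p = 7.5e-07) and at least 2.90-fold higher in KO cortex (adjusted p = 0.000411) than in KO hippocampus. With normexp background correction the difference of Grm4 between KO hippocampus and KO cortex was -0.35 and was no longer called (limma, adjusted p = 0.0701). The offset of 50 in that alternative shrinks differences at such low intensity, so this value does not test the difference. Samples of KO brainstem had -0.63, -0.65 and -0.66 and samples of WT brainstem -0.73, -0.71 and -0.70 for Grm8. KO hippocampus had -1.95, -1.77 and -2.40, WT hippocampus -2.42, -2.05 and -1.39, KO cortex -0.74, -0.76 and -0.52 and WT cortex -0.68, -0.71 and -0.66. The brainstem and cortex samples of Grm8 were tightly grouped and overlapped in WT, and the hippocampal samples were lower and more spread. Grm8 was 1.24 ± 0.20 for brainstem minus hippocampus (adjusted p = 0.000166) and -1.27 ± 0.20 for hippocampus minus cortex (adjusted p = 0.000491).

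Grm5, a group I receptor coupled to calcium release, was lower in brainstem. In brainstem Grm5 stood at 2.33, 2.81 and 3.59 in KO and at 2.85, 2.77 and 2.80 in WT. In hippocampus it stood at 4.34, 4.20 and 4.40 in KO and 4.26, 4.17 and 4.24 in WT, and in cortex at 4.59, 3.67 and 3.68 in KO and 3.74, 3.87 and 3.82 in WT. The WT groups of Grm5 were tight, and the third KO brainstem sample, the one with the highest mean of striatal markers in brainstem, reached 3.59. The WT differences were -1.42 ± 0.26 for brainstem minus hippocampus (adjusted p = 0.000509) and -1.0 ± 0.26 for brainstem minus cortex (adjusted p = 0.00762). By the probe used, Grm5 was not called between WT hippocampus and WT cortex. Its 4 probes gave 0.30 to 0.80 for hippocampus minus cortex, and 2 of them were called. Grm2, a group II presynaptic receptor, averaged -4.01 ± 0.44 in WT brainstem and -2.30 ± 0.36 in WT hippocampus (SD, n = 3 each), a difference of -1.71 ± 0.38 for brainstem minus hippocampus (adjusted p = 0.00233). Grm3, whose values stand above, was -0.89 ± 0.21 for brainstem minus cortex (adjusted p = 0.00459). Grm7, the most widespread group III receptor, averaged -2.68 ± 0.13 in WT brainstem, -2.32 ± 0.07 in WT hippocampus and -2.37 ± 0.22 in WT cortex (SD, n = 3 each) and was not called.

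The alpha subunits of the GABA-A receptor differed in their regional patterns. Gabra5, which carries tonic inhibition in hippocampal pyramidal cells, had the largest WT difference of the 31 between hippocampus and cortex. Gabra5 read -0.25, -0.28 and -0.15 in KO brainstem and -0.11, -0.27 and -0.07 in WT brainstem. It read 2.0, 1.82 and 2.36 in KO hippocampus, 2.19, 2.17 and 2.10 in WT hippocampus, 0.05, 0.12 and 0.40 in KO cortex and 0.21, 0.08 and 0.30 in WT cortex. The hippocampal samples stood more than 1 log2 unit above all others. Gabra5 was 3.87-fold higher in WT hippocampus than in WT cortex (1.95 ± 0.13 for hippocampus minus cortex, adjusted p = 3.2e-07) and -2.30 ± 0.13 for brainstem minus hippocampus (adjusted p = 5.21e-09). Its second probe gave 2.26 and -1.76. Between WT brainstem and WT cortex its probes pointed in opposite directions, at -0.35 and 0.49, and neither was called. In KO the probe used was called lower in brainstem at -0.42 ± 0.13 for brainstem minus cortex (adjusted p = 0.0198). That call held under 23 of 27 alternatives, and the second probe was at 0.26 there and not called. Gabra2, a synaptic subunit of the axon initial segment, was also higher in hippocampus. For Gabra2 the brainstem values were 0.76, 0.62 and 0.03 in KO and 0.63, 0.83 and 0.37 in WT. The hippocampal values were 1.92, 1.51 and 1.34 in KO and 1.65, 1.83 and 1.15 in WT, and the cortical values 0.30, 0.11 and 0.18 in KO and 0.49, 0.82 and 0.06 in WT. It was 1.08 ± 0.24 for hippocampus minus cortex (adjusted p = 0.0056) and -0.93 ± 0.24 for brainstem minus hippocampus (adjusted p = 0.00569), and brainstem and cortex overlapped. Gabra3, known from monoaminergic and thalamic reticular neurons, was lowest in hippocampus. It read -0.33, -0.55 and -0.38 in WT brainstem, -1.36, -1.15 and -0.71 in WT hippocampus and -0.02, -0.07 and 0.09 in WT cortex, with 0.65 ± 0.22 for brainstem minus hippocampus (adjusted p = 0.0251) and -1.07 ± 0.22 for hippocampus minus cortex (adjusted p = 0.00311). Between brainstem and hippocampus the call of Gabra3 held under 23 of 28 alternatives and was lost without any 1 of 4 arrays (the first or the second of WT hippocampus, the first or the third of WT brainstem), with adjusted p up to 0.275 over the alternatives. By the probe used, Gabra3 was not called there in KO. Its 2 probes gave 0.54 and 0.75 in KO and 1 was called, and in WT both were called.

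Gabra6 was measured in brainstem on every array and nearly nowhere else. It was at least 13.4-fold higher in WT brainstem than in WT cortex (adjusted p = 8.66e-05), where no array was above background. Against KO hippocampus, also without an array above background, it was at least 4.97-fold higher in KO brainstem (adjusted p = 0.00409). In WT hippocampus and in KO cortex 1 of 3 arrays measured it. Gabrq was measured on 2 of 3 KO and 3 of 3 WT brainstem arrays and on no other. It was at least 3.72-fold higher in WT brainstem than in WT hippocampus (adjusted p = 1.38e-10) and at least 3.19-fold higher than in WT cortex (adjusted p = 3.09e-10). Gabra6 and Gabrq passed the filter on dim probes only through brainstem groups. Their level in brainstem was thus a condition of being tested, and these tests are not separate evidence for it. Without that filter both genes were still called between WT brainstem and the other WT regions. The labels of the samples do not name cerebellum or hypothalamus, and markers of both regions were measured in the brainstem samples as given above. Of the 9 measured cerebellar markers, 8 were also above background on all arrays of hippocampus and cortex, where the mean of the list was -1.86 to -1.67. In KO brainstem 7 of the 9 were above background on all arrays. With normexp background correction, the WT difference of Gabra6 between brainstem and cortex was 1.46 and that of Gabrq was 0.33, which was no longer called (limma, adjusted p = 0.0786). The offset of that alternative shrinks differences of such dim probes, so these values do not test them. The part of the markers in these differences was not tested.

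**Figure D4:**
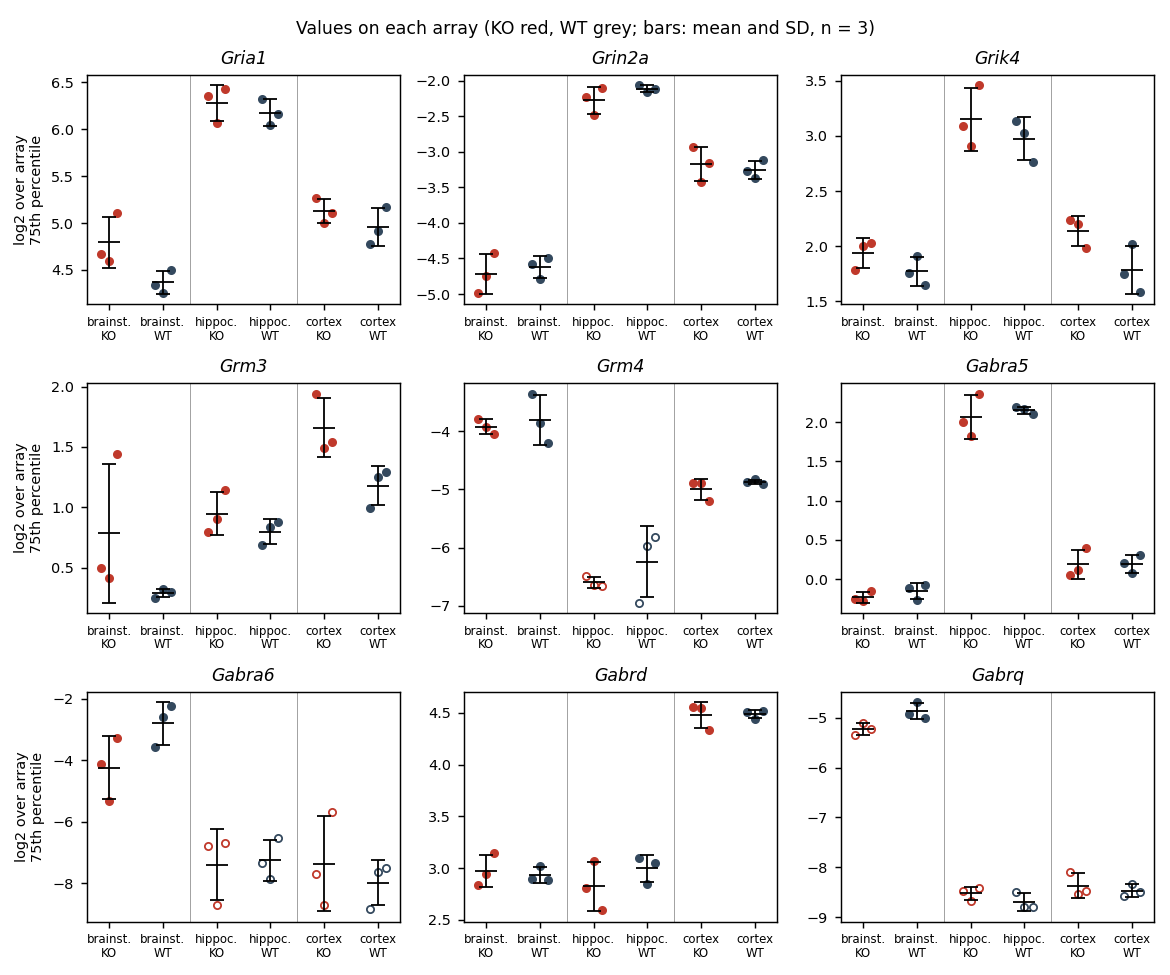
Points are the log2 values of 9 subunits on each of the 18 arrays, KO in red and WT in grey, with the mean and SD of 3 arrays as bars. Open points mark groups in which at least 1 of the 3 arrays was not well above background; each panel has its own scale, which does not start at 0.

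Among the other GABA-A subunits, Gabrd stood out for cortex and Gabrg1 for brainstem. The delta subunit Gabrd replaces the gamma subunit in receptors outside the synapse. Samples of KO brainstem had 2.84, 2.94 and 3.14 and samples of WT brainstem 2.90, 3.02 and 2.89 for Gabrd. KO hippocampus had 2.81, 3.07 and 2.59, WT hippocampus 3.1, 2.85 and 3.05, KO cortex 4.55, 4.55 and 4.33 and WT cortex 4.51, 4.44 and 4.52. Every cortex sample was above every sample of the other regions. Gabrd was 2.94-fold lower in WT brainstem (-1.55 ± 0.12 for brainstem minus cortex, adjusted p = 1.95e-07) and 2.81-fold lower in WT hippocampus (-1.49 ± 0.12 for hippocampus minus cortex, adjusted p = 2.09e-06) than in WT cortex. Brainstem and hippocampus overlapped. In brainstem Gabrg1 stood at 2.06, 1.96 and 2.61 in KO and at 1.92, 1.97 and 1.99 in WT. In hippocampus it stood at 0.91, 1.06 and 1.15 in KO and 0.56, 0.87 and 0.92 in WT, and in cortex at 1.72, 1.33 and 1.44 in KO and 1.18, 1.27 and 1.51 in WT. Brainstem samples of Gabrg1 lay above and hippocampal samples below those of cortex. The WT differences were 1.18 ± 0.16 for brainstem minus hippocampus (adjusted p = 3.99e-05), 0.64 ± 0.16 for brainstem minus cortex (adjusted p = 0.00643) and -0.54 ± 0.16 for hippocampus minus cortex (adjusted p = 0.0356). The call between hippocampus and cortex held under 20 of 27 alternatives, and Gabrg1 was not called there in KO. Astrocyte markers were also highest in brainstem, and their part in the value of Gabrg1 was not tested.

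The beta subunits, found in most GABA-A receptors, differed by less than 1 log2 unit between WT regions. Gabrb1 averaged 2.66 ± 0.15 in WT brainstem, 3.17 ± 0.03 in WT hippocampus and 2.72 ± 0.15 in WT cortex (SD, n = 3 each), and was -0.52 ± 0.11 for brainstem minus hippocampus (adjusted p = 0.00172) and 0.46 ± 0.11 for hippocampus minus cortex (adjusted p = 0.0109). Gabrb2 averaged 4.27 ± 0.08, 4.07 ± 0.15 and 4.40 ± 0.07 in the same groups (SD, n = 3 each) and was -0.32 ± 0.09 for hippocampus minus cortex (adjusted p = 0.0209). That call held under 21 of 27 alternatives. The probe used gave -0.12 ± 0.09 for WT brainstem minus cortex and was not called, whereas another probe of Gabrb2 was called lower at -0.74 (limma, adjusted p = 0.000345). Gabrg3 was near background, at -5.95 ± 0.23, -5.89 ± 0.12 and -5.63 ± 0.25 (SD, n = 3 each), and was not called. Gabra4 averaged 2.18 ± 0.12, 2.53 ± 0.06 and 2.50 ± 0.11 (SD, n = 3 each) and was not called either.

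The differences between regions were also measured in the KO mice, on other arrays of the same slides. KO and WT arrays of the same region and number deviated together (r of 0.24 to 0.62), so the 2 genotypes are not separate repeats. Cortex lay on slides of its own in both genotypes, so cortex and slide cannot be told apart in KO either. Of the 19 subunits called between brainstem and hippocampus in WT, 18 were called the same way in KO (94.7% of the WT and 90.0% of the 20 KO calls). Between brainstem and cortex 12 were called in both genotypes, which was 92.3% of the 13 calls of each. Between hippocampus and cortex 13 were, 86.7% of the 15 WT and 81.2% of the 16 KO calls. None was called in opposite directions. Of all genes called in WT, 84.9%, 87.7% and 76.0% were called the same way in KO in the same order, which was 86.8%, 88.1% and 78.9% of the KO calls. Of all genes, 40.6%, 35.6% and 16.6% were called in KO for these comparisons, and 41.5%, 35.8% and 17.2% in WT. Across the 31 genes the WT and KO differences had a Pearson r of 0.98 between brainstem and hippocampus, 0.98 between brainstem and cortex and 0.97 between hippocampus and cortex. These are descriptions across genes that share arrays within each genotype. The widest gap between genotypes was that of Gabra6 in each comparison, and it rests on values near background on one side.

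**Figure D5:**
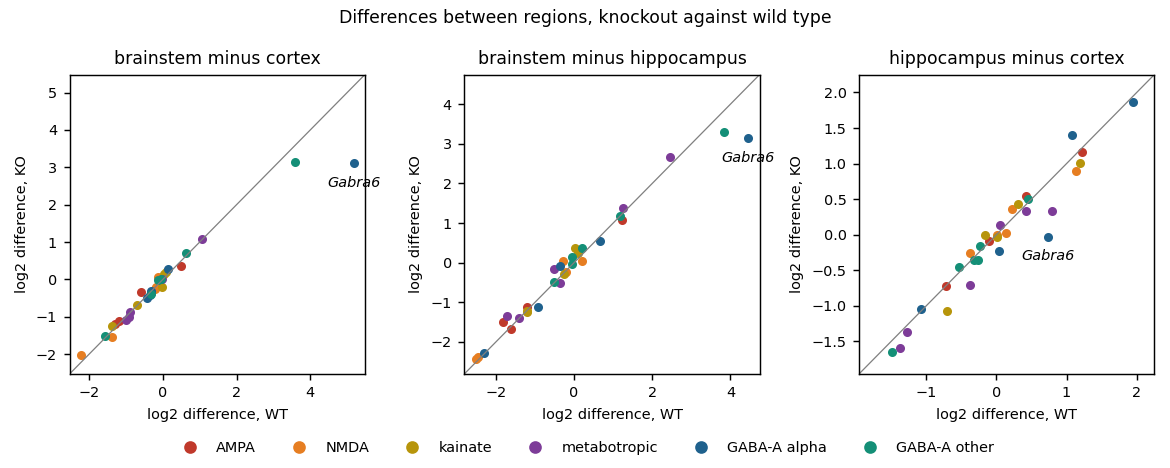
Each point is 1 of 31 subunit genes, with the log2 difference between regions in WT on the x axis and in KO on the y axis; the line marks equal differences. Points follow the line in all 3 panels, with Gabra6 farthest from it.

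Slide 2 held 1 array of each of KO brainstem, WT brainstem, KO hippocampus and WT hippocampus. Within that slide, all 20 KO calls and all 19 WT calls between brainstem and hippocampus had the same direction as over all slides. These arrays are among those that gave the calls, so the same direction was likely beforehand and is not a separate test. For 13 subunits with several tested probes, the probes pointed the same way in 32 of 39 gene and region pairs in WT. No gene had probes called in opposite directions. Another probe of Gabrb2 was called lower in WT brainstem than in WT hippocampus (-0.56) while the probe used was uncalled at 0.20, and a second probe of Grik2 was called lower in WT brainstem than in WT cortex (-0.51) beside 0.04.

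Several GABA-A subunit genes lie side by side in the mouse genome, and adjacent genes could differ in direction between regions. On chromosome 5 the order by RefSeq is Gabrg1, Gabra2, then 1 other gene, Gabra4 and Gabrb1. Gabrg1 was higher and its direct neighbour Gabra2 lower in brainstem than in hippocampus, by the values above. On chromosome 11 Gabra6 adjoins Gabrb2, which was measured on all arrays and whose values stand above. On chromosome 7 Gabrg3 adjoins Gabra5, and on chromosome X Gabra3 adjoins Gabrq.

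The promoters of Gabrg1 and Gabra2 are shown because these adjacent genes had opposite regional differences. Each window holds 300 bases, 250 before and 50 from the start of transcription, on the strand of the gene (RefSeq, build GRCm38.p6). That of Gabrg1 (chr5:70842568-70842867, minus strand) had 38.3% G and C and 3 CG pairs, and that of Gabra2 (chr5:71095800-71096099, minus strand) had 70.0% and 25. Over all 32851 windows the medians were 52.7% and 7.
Gabrg1: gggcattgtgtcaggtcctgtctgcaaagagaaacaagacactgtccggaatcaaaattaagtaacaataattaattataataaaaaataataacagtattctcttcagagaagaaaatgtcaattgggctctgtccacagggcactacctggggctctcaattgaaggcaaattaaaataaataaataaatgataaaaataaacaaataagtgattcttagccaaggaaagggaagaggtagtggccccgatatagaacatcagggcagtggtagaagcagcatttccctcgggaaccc
Gabra2: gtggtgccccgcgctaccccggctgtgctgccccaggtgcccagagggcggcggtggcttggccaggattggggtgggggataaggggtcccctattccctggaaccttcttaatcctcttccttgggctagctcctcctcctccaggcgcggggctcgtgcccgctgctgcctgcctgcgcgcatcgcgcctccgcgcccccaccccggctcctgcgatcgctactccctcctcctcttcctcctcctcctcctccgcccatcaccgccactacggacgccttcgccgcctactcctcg

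Promoter windows were at hand for 24 of the 33 genes, 31 windows in all. They were searched on both strands for the core of the antioxidant response element, TGACNNNGC, through which Nrf2 acts. It was found in 3 of the 31 windows (9.7%), against 12.4% of all windows. The genes were Gabrq, Gabrb2 and Grin2d, and none of them was called between KO and WT in any region. A match describes letters in this window and shows no binding. The cyclic AMP response element TGACGTCA, also searched on both strands, was in 0 of the 31 windows, against 1.8% of all windows. Capitals mark the match to the antioxidant response element core in these 3 windows, at chrX:72824928-72825227 (plus strand) for Gabrq, chr11:42420190-42420489 (plus strand, with the match on the other strand) for Gabrb2 and chr7:45866632-45866931 (minus strand) for Grin2d.
Gabrq: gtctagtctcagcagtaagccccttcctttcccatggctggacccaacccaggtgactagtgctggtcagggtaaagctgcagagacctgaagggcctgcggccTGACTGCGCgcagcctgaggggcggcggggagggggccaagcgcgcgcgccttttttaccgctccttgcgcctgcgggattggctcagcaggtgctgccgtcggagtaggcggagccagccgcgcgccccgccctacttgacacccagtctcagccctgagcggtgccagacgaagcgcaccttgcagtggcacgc
Gabrb2: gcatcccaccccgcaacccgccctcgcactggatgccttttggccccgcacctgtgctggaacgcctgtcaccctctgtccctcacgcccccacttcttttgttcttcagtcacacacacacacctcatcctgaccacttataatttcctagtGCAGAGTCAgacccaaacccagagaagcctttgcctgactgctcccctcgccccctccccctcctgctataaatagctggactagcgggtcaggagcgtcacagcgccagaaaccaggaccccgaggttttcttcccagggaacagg
Grin2d: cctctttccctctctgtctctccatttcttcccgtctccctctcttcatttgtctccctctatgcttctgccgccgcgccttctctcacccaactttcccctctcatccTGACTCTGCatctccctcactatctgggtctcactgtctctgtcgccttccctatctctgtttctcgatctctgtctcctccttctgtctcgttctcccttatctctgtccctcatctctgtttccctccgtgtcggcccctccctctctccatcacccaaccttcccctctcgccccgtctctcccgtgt

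Other genes of glutamate and GABA transmission were read alongside, 50 genes in 5 lists of which 46 were tested. None was called between KO and WT in any region. In WT brainstem against hippocampus 15 were higher and 22 lower, beside the 23.0% and 18.5% of all genes. In WT brainstem against cortex 11 were higher and 21 lower, beside 19.1% and 16.6% of all genes, and in WT hippocampus against cortex 7 and 10, beside 6.79% and 10.5%. Among the 21 tested auxiliary subunits and scaffolds of ionotropic glutamate receptors, 2 were higher and 15 lower in brainstem than in hippocampus, and 1 was higher and 15 lower than in cortex, beside the same shares of all genes. The kinase Camk2a, a mediator of NMDA receptor plasticity, was lower in WT brainstem, with log2 differences of -3.90 ± 0.28 against hippocampus and -3.40 ± 0.28 against cortex. The AMPA receptor partner Cnih2 was lower against hippocampus, at -2.20 ± 0.13, and Cacng3 was lower against cortex, at -2.46 ± 0.17.

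The vesicular glutamate transporters differed in direction. The values are log2 differences. Slc17a6 was higher in WT brainstem by 3.85 ± 0.23 against hippocampus and 3.14 ± 0.23 against cortex. Slc17a7 was lower there, at -3.56 ± 0.17 and -3.48 ± 0.17, and Slc17a8 was higher against cortex by 2.24 ± 0.29. Of the 4 tested genes of glycine receptors and glycine uptake, 4 were higher in WT brainstem than in hippocampus, beside 23.0% of all genes, and 3 than in cortex, beside 19.1%. Glra1, a glycine receptor subunit of brainstem and spinal cord, averaged -1.47 in WT brainstem, against -7.41 in WT hippocampus and -7.06 in WT cortex, where 1 of 3 arrays measured it in each. Slc6a11, a GABA transporter of astrocytes, was higher in WT brainstem than in WT hippocampus by 2.62 ± 0.20.

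Between hippocampus and cortex in WT, the scaffold Homer3 (1.69 ± 0.16) and the AMPA receptor partner Cacng8 (1.13 ± 0.20) were higher in hippocampus. Cacng3 (-1.14 ± 0.17), the GABA transporter Slc6a13 (-0.98 ± 0.24) and the vesicular GABA transporter Slc32a1 (-0.90 ± 0.11) were lower in hippocampus. Of the 7 uptake genes, 4 were higher and 3 lower in WT brainstem than in WT hippocampus, beside 23.0% and 18.5% of all genes.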

How the data were processed

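Amplified, Cy3-labelled RNA was hybridised to 1-colour Agilent arrays, 3 per group, per the labels' protocols. The deposited scanner files hold spot intensity after Feature Extraction 10.7.3.1, per the file headers, which had subtracted background within each array. The spot flags for background, saturation and outliers, coded 0 or 1, are other values of the same deposited files. Genome coordinates of the array design (mm9) were not used.

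Processed intensity was put on the log2 scale minus the 75th percentile of each array. Between 30 and 140 outlier spots per array were left out, and no spot was saturated. A probe was kept (30066 were) if the scanner flagged it above background on every array of some group, and each gene was read from its brightest probe on average. This gave 22672 genes, 14825 with a symbol from the RefSeq table and 7847 without. limma 3.58.1 in R 4.3.3 fitted 1 mean per group over the 18 arrays. Tests were two-sided with Benjamini-Hochberg adjustment over all genes and a threshold of 0.05, for 13 comparisons. A fold is given as at least a value where a group had no array above background. The number of arrays limits the precision, and p-values measure the spread between these RNAs.

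The members and all gene lists were chosen with earlier results of these data known. Values on every array are given for the 3 members with the smallest p in each KO comparison and for up to 2 members per class with the largest called WT differences from cortex, and other members are given by means. Some genes outside the set that this rule or the lists would name are not reported here. KO and WT arrays of the same region and number deviated together (r of 0.24 to 0.62, over 0.1 in 9 of 9 pairs), and they also shared slides. Normexp was run on median signals in place of mean signals, a change made after seeing the files. It used an offset of 50 intensity units, where the 75th percentile of an array was 636 to 1102. The offset by itself shrinks log2 differences of dim probes. On simulated data for KO minus WT in cortex over 22672 genes, 68% of 100 genes shifted by 1 log2 unit and 95% of 100 shifted by 2 were recovered. There were 12 false calls. The simulated arrays varied independently, unlike the real ones, and far more genes were shifted than were called here. These rates thus need not hold for the subunits.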

Additional observations from a re-analysis of the deposited data

How the results depend on the processing

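Across 28 alternatives, 18 of which left out 1 array each, the number of subunits called between KO and WT, or for a difference in the KO effect, was 0 in every case. The smallest limma adjusted p of a subunit was 0.278, for Gria1 averaged over regions with the replicate number as a block. Without the block, the second probe of Gria1 pointed the other way in that average (-0.144 against 0.232). That block changed no call between KO and WT. Between regions it gave 20, 17 and 19 calls within KO and 21, 16 and 17 within WT. The order is brainstem minus hippocampus, brainstem minus cortex and hippocampus minus cortex. Without the block the calls were 20, 13 and 16 within KO and 19, 13 and 15 within WT. Across regions of a genotype, r was over 0.1 in 14 of 18 pairs of the same number and in 7 of 36 pairs of different number. Whether arrays of the same number came from the same mouse is not known here. Leaving out 1 array gave 18 to 21, 12 to 15 and 11 to 18 KO calls, and 18 to 20, 13 to 14 and 10 to 15 WT calls in the same order. With the authors' table read by its column names, 0 subunits were called between hippocampus and cortex in KO and 0 in WT, and 7 of its columns hold another array's values. Fitting every probe on its own turned 2 uncalled values round through another probe, Gabrb2 in WT brainstem minus hippocampus to -0.56 and Grik2 in WT brainstem minus cortex to -0.51. Apart from that table, 18 of 19 WT calls between brainstem and hippocampus held under every alternative that tested the gene (not Gabra3). So did 12 of 13 between brainstem and cortex (not Gabrq). Between hippocampus and cortex 9 of 15 did (not Gabrb1, Gabrb2, Gabrg1, Grin2c, Gria2 and Gria4). Gabra6, Gabrq and Grm4 were not tested where a probe had to be above background on all arrays. With every probe on its own, the probe with the smallest p stood for its gene. That alternative could therefore hardly lose a call. In WT brainstem minus cortex, for example, 1 of the 2 probes of Gria1 was called. Slide as a fixed block could not be fitted for cortex against the other regions. Signal over background limits Gabra6, Gabrq, Grm4, Grik3 and Gabrg3.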
